A study of Homo sapiens with 3 samples.

Results

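The 42 genes described here build and regulate the contacts and the polarity of epithelial cells: the adherens and tight junctions, the complexes that set the apical and basolateral sides, and factors that maintain epithelial identity. They were taken by name from a list of such genes, which was chosen with earlier results of these data known. Of the 42, 39 have at least 1 transcript in the authors' deposited table, which covers 12582 named genes. NECTIN4, GRHL2 and PRSS8 have no row in the table used here and were not analysed. The comparison sets SW480 cells, a long-established line from a human colon adenocarcinoma, transduced with an shRNA against the RNA-binding protein RBMS1 (shRBMS1, 1 library) against the same line transduced with control shRNA (shControl, 2 libraries). All 3 libraries are total RNA collected 48 hours after transduction, and whether the control hairpin was the same in both control libraries is not stated in the sources used here. Each value is the authors' log2 fold change for 1 RefSeq transcript, shRBMS1 over shControl, so that −1 means 50% of the control level. Where a gene has several transcripts there, their median, computed here, stands for the gene. That median is also meant where the value of such a gene is given according to the authors' deposited table. Levels in each library were not analysed here. The depth is therefore unknown, no difference has a replicate check, and no error or test is given. In total RNA from a culture, fewer cells with a transcript and less of it per cell cannot be told apart.

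Adherens junctions join neighbouring epithelial cells through cadherins and nectins that are tied to actin by catenins and afadin. Tight junctions lie apical to them, where claudins, occludin and their scaffolds seal the space between cells. The Crumbs, PAR and Scribble complexes place these junctions and keep the apical and basolateral membranes apart, and transcription factors such as the ETS factors EHF and ELF3, with the splicing factors ESRP1 and ESRP2, maintain the epithelial programme. Loss of E-cadherin and of some claudins is a known part of the epithelial-mesenchymal transition in colon cancer cells.

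RBMS1 itself was at −1.49, or 35.6% of control, according to the authors' deposited table, and since the header names no direction, the ratio was read so that this value is negative. Of 10 markers of colon epithelium, 6 have a row in the authors' deposited table, E-cadherin and EPCAM among them. Of the markers of other cell types, 1 of 10 for leukocytes (LYZ, at −0.68 according to the authors' deposited table), 0 of 7 for endothelium and 0 of 8 for fibroblasts have a row.

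The epithelial genes lay mostly below 0. Their median was −0.22, against 0.01 for all genes, and 30 of the 39 (76.9%) were below 0, against 48.5% of all genes. By at least 1 on the log2 scale, 5 of the 39 (12.8%) were lower, against 3.96% of all genes, and 1 (2.56%) was higher, against 3.95% of all genes. The 5 lower genes were the sorting adaptor AP1M2, the membrane protein MAL2, the claudin CLDN7, the transcription factor ELF3 and the polarity gene CRB3, and the higher one was EHF. At a threshold of 1.5-fold, 10 were lower (25.6%) and 2 higher (5.13%), where all genes gave 10.4% and 8.25%. Of the 39 genes 26 (66.7%) lay within 0.5 of 0, against 76.9% of all genes. AP1M2 is the least certain of the 5, because it turned to 2.32 when transcripts beyond 5 in either direction were left out, which gave 4 genes lower and 2 higher by at least 1.

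**Figure D1:**
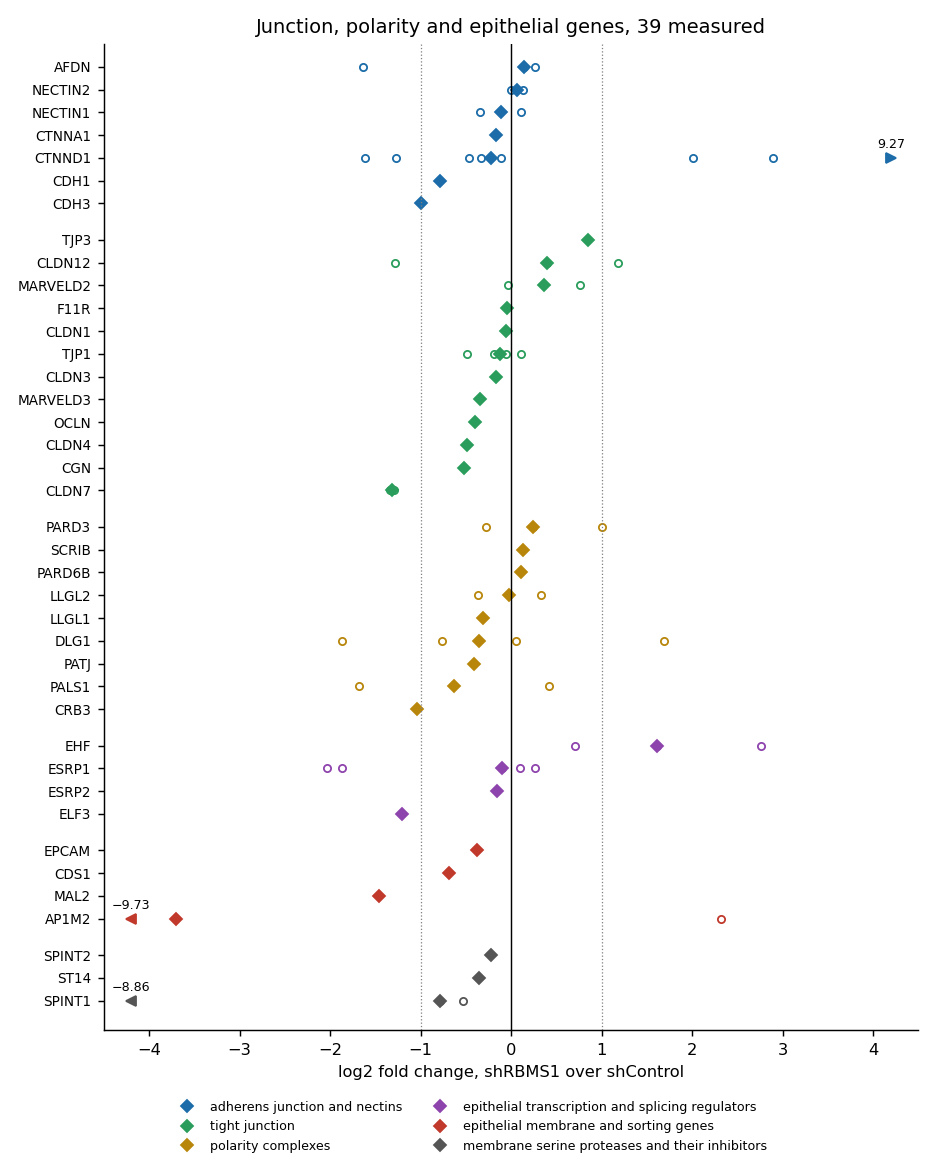
Values of the 39 measured junction, polarity and epithelial genes, grouped by role, as log2 fold change of shRBMS1 over shControl on the horizontal axis. Diamonds are gene values (the median of transcripts), open circles are single transcripts of genes with several, triangles at the edge are the 3 transcripts beyond the axis with their values, and dotted lines mark −1 and 1; 30 diamonds lie left of 0.

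**Figure D2:**
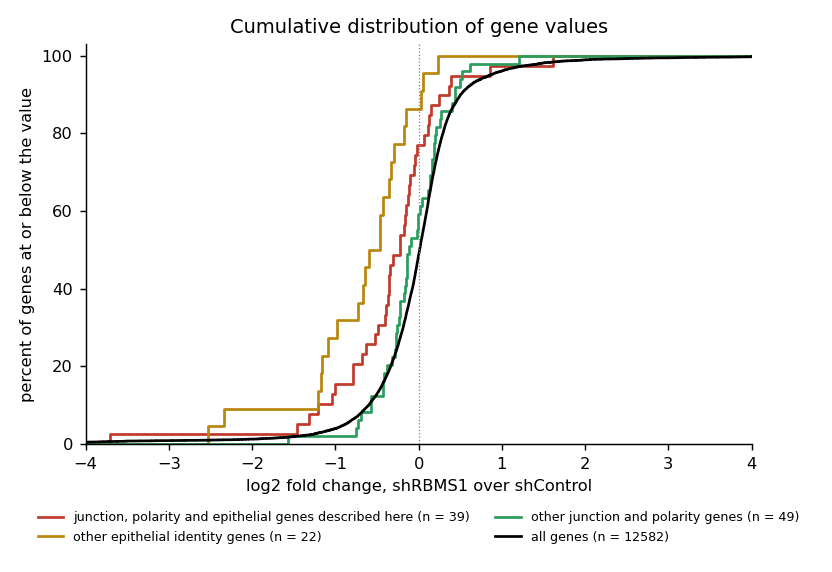
Cumulative percentage of genes at or below each log2 fold change of shRBMS1 over shControl, for the 39 genes described here, 22 other epithelial identity genes, 49 other junction and polarity genes and all 12582 genes. The line of the 39 genes runs left of that of all genes over most of the range, with medians of −0.22 and 0.01, and that of the other epithelial identity genes lies furthest left, with a median of −0.53.

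Among the adherens junction genes of this group, both classical cadherins were low while the gene values of CTNNA1, CTNND1, afadin and the nectins stayed nearer to 0. The group's median was −0.17, with 5 of 7 genes (71.4%) below 0, against 48.5% of all genes. It was −0.34 with the longest transcript of each gene and −0.79 over the 3 genes with 1 transcript, which is the value of CDH1. CDH1 encodes E-cadherin, the main adhesion receptor of epithelial cells, and stood at −0.79, or 57.8% of control, according to the authors' deposited table. CDH3, which encodes P-cadherin, stood at −0.9995 according to the authors' deposited table, just inside the threshold of 1. The genes are neighbours on chromosome 16 (hg38), CDH3 at 68645310 to 68733771 and CDH1 at 68737292 to 68835537. Alpha-catenin, CTNNA1, which links cadherins to actin, was at −0.17 according to the authors' deposited table. The actin-binding scaffold of nectins, afadin (AFDN), was at 0.15 from 3 transcripts, which the authors' deposited table had at −1.64, 0.15 and 0.27. The nectins NECTIN1 and NECTIN2, immunoglobulin-like adhesion receptors, were at −0.12 and 0.06 by the same median. Both cadherins thus had lower fold changes than the gene values of CTNNA1, CTNND1, afadin and the nectins, a difference that has no test. It holds for the genes of this group only. Among the other junction genes described below, plakoglobin (JUP) was at −0.72 and beta-catenin (CTNNB1) at 0.18.

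CTNND1 encodes the catenin that binds the juxtamembrane segment of cadherins and slows their removal from the surface, and its value of −0.22, the median over its transcripts in the authors' deposited table, covers transcripts that went opposite ways. It has 8 measured transcripts, more than any other gene described here, which ran from −1.62 to 9.27. Their linked GENCODE models begin translation at either of 2 start codons on chromosome 11 (hg38), at 57791479 and at 57795613. The upstream start gives the long form that is typical of mesenchymal cells, and the downstream start gives the shorter form that is typical of epithelial cells, a choice that ESRP1 and ESRP2 are known to steer. The 3 transcripts with the upstream start were at −0.12, 2.89 and 9.27 according to the authors' deposited table. The 5 with the downstream start were at −1.62, −1.27, −0.46, −0.33 and 2.00 according to the authors' deposited table. Below 0 lay 4 of 5 transcripts of the shorter form and 1 of 3 of the longer form, with overlap between the forms. Of the 73 transcripts of all genes described here, 47 were below 0. Transcripts of 1 gene are not replicates of a form, so these counts do not show a switch between forms. This split by start codon was chosen after values were seen. The transcripts at 9.27 and −0.12 are linked to the same GENCODE model, so these data do not show in what they differ. For the value of 9.27, a level close to 0 in 1 of the arms and a large change cannot be told apart. Of the factors that steer the choice, ESRP2 was at −0.16 according to the authors' deposited table. The 5 transcripts of ESRP1 lay at −2.03, −1.87, −0.10, 0.09 and 0.27 according to the authors' deposited table, with a median of −0.10. Whether the split in CTNND1 goes with ESRP1 was not tested.

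**Figure D3:**
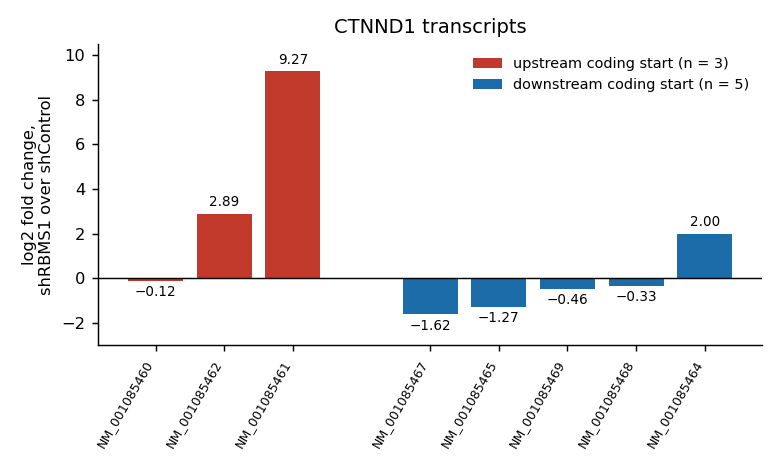
Log2 fold change, shRBMS1 over shControl, of the 8 measured RefSeq transcripts of CTNND1, with 3 whose linked model has the upstream coding start and 5 with the downstream start. Bars start at 0 and carry their values; the upstream-start transcripts run from −0.12 to 9.27 and the downstream-start ones from −1.62 to 2.00.

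Tight junction genes had a median of −0.15, with 9 of 12 (75%) below 0, against 48.5% of all genes, and the claudins differed among themselves. The median was −0.37 with the longest transcript of each gene and −0.26 over the 8 genes with 1 transcript. Claudins are the membrane proteins that form the seal and its ion channels. CLDN7 was the lowest, at −1.32 or 40.2% of control, and both of its transcripts were close together, at −1.34 and −1.29 according to the authors' deposited table. These transcripts begin at different starts on chromosome 17, so the low value is shared by both. CLDN4 followed at −0.48, or 71.5% of control, according to the authors' deposited table, and its neighbour on chromosome 7, CLDN3, at −0.17. CLDN1 was at −0.05 according to the authors' deposited table. CLDN12, an atypical claudin that lacks the usual binding motif for PDZ domains at its end, was at 0.39 from transcripts at −1.29, 0.39 and 1.18 according to the authors' deposited table. The CLDN12 transcripts at −1.29 and 0.39 are linked to the same GENCODE model, so these data do not show in what they differ. From CLDN7 to CLDN12 the gene values span both sides of 0, so the claudins were not shifted as a block.

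Occludin, OCLN, was at −0.39 or 76.1% of control according to the authors' deposited table, and how its reads were divided from those of the annotated pseudogene OCLNP1 is not stated in the sources used here. The related proteins of the MARVEL family went either way, with MARVELD3 at −0.35 according to the authors' deposited table. MARVELD2, or tricellulin, the protein of corners where 3 cells meet, was at 0.36, the median of transcripts at −0.03 and 0.76. F11R, the junctional adhesion molecule JAM-A, was at −0.05 according to the authors' deposited table. Among the scaffolds, cingulin (CGN), which ties tight junctions to actin, was at −0.52 or 69.6% of control according to the authors' deposited table. TJP1, or ZO-1, was at −0.12, with 4 transcripts between −0.49 and 0.10 according to the authors' deposited table. Its relative TJP3, or ZO-3, was the highest of the tight junction genes, at 0.85 or 180.5% of control according to the authors' deposited table. The scaffolds that link claudins to actin were thus not lower together.

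Polarity genes had a median of −0.31 with 6 of 9 (66.7%) below 0, against 48.5% of all genes. The direction of that median rests on the choice of transcript: it was 0.13 with the longest transcript of each gene and 0.11 with the least changed one. CRB3, the Crumbs protein of most epithelia, was lowest at −1.04 or 48.6% of control according to the authors' deposited table. Its apical partners were PATJ, at −0.41 according to the authors' deposited table, and PALS1, at −0.63 from transcripts at −1.68 and 0.41. In the PAR complex, PARD3 was at 0.24 and PARD6B at 0.11 according to the authors' deposited table, where PARD3 transcripts ran from −0.28 to 1.01. Of the basolateral Scribble complex, SCRIB was at 0.13 and LLGL1 at −0.31 according to the authors' deposited table, and LLGL2 at −0.02, the median of transcripts at −0.37 and 0.33. DLG1, a scaffold of the same complex, was at −0.36, between transcripts at −1.87, −0.76, 0.05 and 1.69 according to the authors' deposited table. The 3 gene values of the Crumbs complex lay below both of the PAR complex, without a test, but the PALS1 transcript at 0.41 lay above both.

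Regulators of epithelial identity held both the highest gene and 1 of the lowest. ELF3, an epithelial ETS factor, was at −1.20 or 43.4% of control according to the authors' deposited table, from 1 transcript. EHF, a second epithelial ETS factor, was at 1.61 or 306.0% of control, and its 3 transcripts were all above 0, at 0.71, 1.61 and 2.76 according to the authors' deposited table. The median of the 4 measured regulators was −0.13, and −0.68 with the longest transcript of each.

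Sorting and membrane genes of epithelial cells had a median of −1.07 with 4 of 4 below 0, against 48.5% of all genes. With transcripts beyond 5 in either direction left out, AP1M2 turned to 2.32, 3 of 4 were below 0 and the median was −0.53. MAL2, a membrane protein of transcytosis to the apical surface, was at −1.46 or 36.4% of control according to the authors' deposited table. CDS1, an enzyme of phosphatidylinositol synthesis that is high in epithelia, was at −0.68 or 62.4%, and the adhesion molecule EPCAM at −0.37 or 77.2%, in the authors' deposited table. AP1M2 encodes the epithelial mu chain of the clathrin adaptor AP-1, which sorts proteins to the basolateral membrane, and its −3.71 is the median of 2 transcripts that lie far apart. According to the authors' deposited table, NM_005498 was at −9.73 and NM_001300887 at 2.32.

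The linked GENCODE 29 models of these AP1M2 transcripts, 1749 and 1757 bases long, differ inside the gene by 6 bases at the beginning of 1 exon. That exon lies on chromosome 19 (hg38, minus strand) at 10579716 to 10579864 in the longer model and ends at 10579858 in the shorter one. The sequences around that junction are shown because opposite values were assigned to transcripts whose models otherwise differ only by 1 base at each outer end, and capitals mark the 6 added bases.
NM_001300887: agctcactggccTTTCAGgcagcaagaaca
NM_005498: agctcactggccgcagcaagaaca
With no level beside the values, a level close to 0 in 1 of the arms and a large change cannot be told apart, and the direction of AP1M2 as a gene is uncertain.

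The serine proteases and inhibitors of the epithelial surface were below 0 in 3 of 3 measured genes, against 48.5% of all genes, with a median of −0.35. ST14, the membrane protease matriptase, was at −0.35 or 78.5% of control according to the authors' deposited table. Its Kunitz-type inhibitors were SPINT1 at −0.79 and SPINT2 at −0.22 according to the authors' deposited table. The transcripts of SPINT1 were at −8.86, −0.79 and −0.53 according to the authors' deposited table, all below 0. Those at −8.86 and −0.53 are linked to the same GENCODE model, so these data do not show in what they differ. The protease and both inhibitors lay on the same side.

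Transcripts of a gene often disagreed, as they did across the table. Several transcripts were measured for 16 genes here, and in 10 of them (62.5%) these lay more than 1 apart, against 49.3% of such genes in the whole table. In 13 of the 16 (81.2%) the transcripts lay on both sides of 0, against 66.5%. Of the 73 transcripts, 15 (20.5%) were at −1 or lower and 9 (12.3%) at 1 or higher, against 7.86% and 8.26% of all transcripts. The 23 genes with 1 measured transcript had a median of −0.35 and 20 were below 0, against 49.6% of all genes with 1 transcript. The 16 with several had a median of −0.11 and 10 were below 0, against 46.6% of all such genes. Genes whose value needs no choice of transcript thus had the lower median, a difference that has no test. Exon bases were shared with another measured gene on the opposite strand in 3 genes, CLDN7, LLGL1 and ESRP2. The strand setting of the authors' counting is not stated in the sources used here.

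Promoter sequences of 4 of the 5 genes lower by at least 1 are shown because the E-box CACCTG, which reads CAGGTG on the other strand, is the site through which the repressors SNAI1, SNAI2 and ZEB1 are known to act on epithelial genes. Each runs from 250 bases before to 50 after a transcript start (RefSeq, GRCh38.p14), 5′ to 3′ along the gene, and capitals mark E-boxes.
CLDN7, chr17:7262429-7262728, minus strand: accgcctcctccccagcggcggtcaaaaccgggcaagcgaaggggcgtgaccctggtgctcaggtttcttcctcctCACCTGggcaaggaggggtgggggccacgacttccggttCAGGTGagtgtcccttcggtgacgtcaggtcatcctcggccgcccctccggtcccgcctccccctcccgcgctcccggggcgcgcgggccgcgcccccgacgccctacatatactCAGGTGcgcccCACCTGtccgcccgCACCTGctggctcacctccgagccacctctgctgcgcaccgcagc
CRB3, chr19:6464021-6464320, plus strand: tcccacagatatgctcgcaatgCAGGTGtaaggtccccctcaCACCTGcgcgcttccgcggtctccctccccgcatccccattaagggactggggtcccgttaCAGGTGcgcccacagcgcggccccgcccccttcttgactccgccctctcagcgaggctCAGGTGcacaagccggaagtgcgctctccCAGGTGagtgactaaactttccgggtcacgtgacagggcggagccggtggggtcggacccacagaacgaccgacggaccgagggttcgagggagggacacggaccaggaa
AP1M2, chr19:10587263-10587562, minus strand: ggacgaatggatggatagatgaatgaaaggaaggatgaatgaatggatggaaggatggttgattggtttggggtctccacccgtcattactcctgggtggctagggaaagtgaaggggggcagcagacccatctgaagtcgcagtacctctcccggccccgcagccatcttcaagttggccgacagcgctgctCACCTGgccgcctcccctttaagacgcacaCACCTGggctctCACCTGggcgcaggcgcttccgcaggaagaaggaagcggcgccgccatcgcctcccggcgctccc
ELF3, chr1:202010337-202010636, plus strand: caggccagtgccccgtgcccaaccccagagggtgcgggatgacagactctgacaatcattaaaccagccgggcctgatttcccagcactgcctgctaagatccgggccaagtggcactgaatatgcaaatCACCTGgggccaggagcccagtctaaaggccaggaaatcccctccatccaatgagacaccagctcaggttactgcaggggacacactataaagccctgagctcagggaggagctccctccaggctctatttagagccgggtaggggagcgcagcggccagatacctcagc

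The promoters of CLDN7 and CRB3 hold 5 E-boxes each, that of AP1M2 holds 3 and that of ELF3 holds 1. A second start of CLDN7 has none, while the CLDN7 transcripts, which begin at different starts, were alike at −1.34 and −1.29. Of the 39 genes 23 have a promoter in the RefSeq table, and 13 of these (56.5%) hold at least 1 E-box in a promoter, against 23.8% of the 10012 measured genes with one. MAL2, CDH1 and CDH3, all low, are not among the 23. The table holds 38 starts for these 23 genes and 14451 for the 10012, and a gene with more starts has more sequence in which to match. At least 3 E-boxes in 1 promoter occurred in 5 of 23 (21.7%), namely CLDN7, CRB3, AP1M2, PATJ and AFDN, against 0.489% of measured genes. The values of these 5 were not all low, since AFDN, with 4 E-boxes, was at 0.15 according to the authors' deposited table. The direction of AP1M2 is uncertain, with transcripts at −9.73 and 2.32. Genes described here with an E-box had a median of −0.41 with 11 of 13 below 0, and those without had a median of −0.11 with 6 of 10 below 0. Over all measured genes with a promoter, those with an E-box had a median of −0.01, with 1222 of 2386 below 0. Those without had a median of 0.02, with 3652 of 7626 below 0, so the table as a whole showed no shift of that size. Among all genes lower by at least 1, 29.9% held an E-box, and among those higher by at least 1, 24.6%. The palindrome AACCGGTT, the site of Grainyhead-like factors such as GRHL2, was in 0 of the 38 promoters of these 23 genes and in 0.134% of all promoters. At so low a share, 38 promoters are too few to show whether the site is rarer here. The E-box and the Grainyhead-like site were chosen after values were seen. A match is a description of letters and was not tested as a cause.

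Sites that RBMS1 is known to bind, AUAUA in RNA and ATATA in the sequences here, were found in a similar share of these genes as elsewhere. They occurred in the annotated 3′ UTR of 21 of 38 genes (55.3%), against 58.6% of 11238 measured genes. These shares make no allowance for the length of the 3′ UTR, which had a median of 1635 bases here, against 1139. The genes with a site had a median of −0.22, and so had those without. Among all genes the medians were 0.01 with a site and −0.004 without. The number of sites varied among genes on both sides of 0, and overlapping matches within 1 stretch were each counted as a site. Of the 5 genes lower by at least 1, MAL2 has 7 sites, CRB3 has 2, ELF3 has 1, and CLDN7 and AP1M2 have none. By this count the genes with the most sites were DLG1, with 16, at −0.36, and PALS1, CLDN1 and PARD6B, with 10 each, at −0.63, −0.05 and 0.11 according to the authors' deposited table. Each of these genes has overlapping matches, so its separate stretches are fewer, and the order of genes by stretches was not determined. The sites of 3 low genes are shown with 10 bases on either side, from GENCODE 29 transcripts, with ATATA in capitals and the distance from the stop codon in bases.
CDH1, 398 after the stop codon, at chr16:68833897-68833901: tgttttgtgtATATAattttttaaa
CDH1, 1287 after the stop codon, at chr16:68834786-68834790: agcaagagtgATATActccaggact
CDH1, 1875 after the stop codon, at chr16:68835374-68835378: gctatatcgaATATAgttctgtgta
ELF3, 485 after the stop codon, at chr1:202015808-202015812: tttatgtgctATATAaatatgtcag
CRB3, 162 after the stop codon, at chr19:6467184-6467188: attcacttttATATAtttatataaa
CRB3, 170 after the stop codon, at chr19:6467192-6467196: ttatatatttATATAaaattagtag

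**Figure D4:**
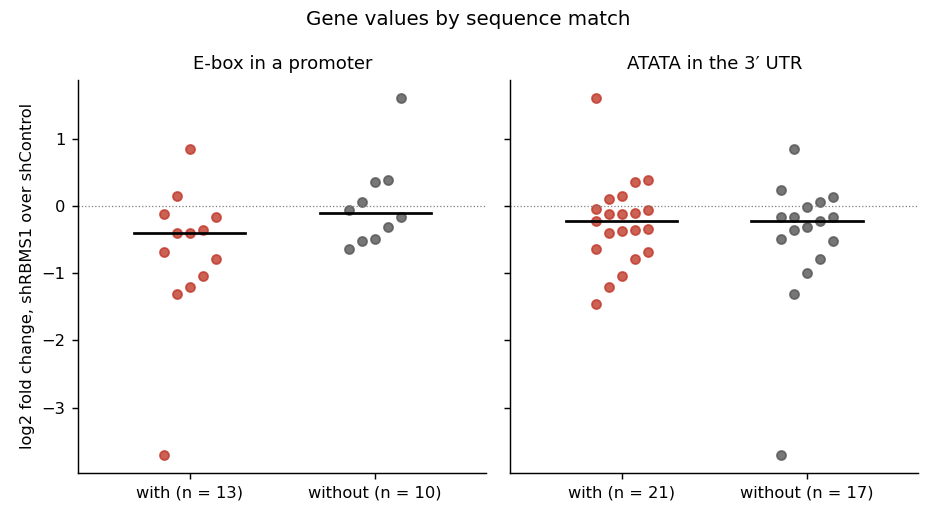
Log2 fold change of shRBMS1 over shControl for the genes described here, each point a gene and each line a median, divided by an E-box in a promoter (13 genes with, 10 without) and by ATATA in the 3′ UTR (21 with, 17 without). The medians are −0.41 and −0.11 for the E-box, and −0.22 on both sides for ATATA.

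The model transcripts of these genes were 3756 bases long at the median with 50.3% GC, against 3109 bases and 49.0% GC over 11326 measured genes with a model. Their 3′ UTRs had a median of 1635 bases, against 1139.

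Other genes of epithelial identity, from a list of known role, lay further below 0 than the genes above. Of 46 listed, 22 have a row, with a median of −0.53, and 19 of them (86.4%) were below 0, against 48.5% of all genes. By at least 1, 6 (27.3%) were lower and 0 higher, against 3.96% and 3.95% of all genes. The lowest were TTC39A at −2.53 and the microvillar actin bundler villin (VIL1) at −2.33 or 19.8% of control according to the authors' deposited table. The highest were SH2D3A at 0.23, the keratin KRT8 at 0.05 and the endoderm factor FOXA2 at 0.03 according to the authors' deposited table. KRT8 pairs with KRT18, which was at −1.09 from transcripts at −2.17 and −0.02 according to the authors' deposited table.

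Junction and polarity genes outside the 42 were looked at in the same way. Of 45 other junction genes 24 have a row, and their median was −0.004 with 12 (50%) below 0, against 48.5% of all genes. None was at −1 or lower and 1 (4.17%) at 1 or higher, against 3.96% and 3.95% of all genes. The tricellular junction receptor LSR was at −0.75, plakoglobin (JUP) at −0.72 and PDLIM1 at −0.58 according to the authors' deposited table. At the other end stood the actin-binding LIMA1 at 1.21, CLDN23 at 0.61 and ARHGEF2 at 0.49. Transcripts lay on both sides of 0 for LSR (−1.52 to 0.61), LIMA1 (−0.69 to 3.20) and ARHGEF2 (−0.93 to 0.72). Those of JUP were at −0.77 and −0.68, and PDLIM1 and CLDN23 have 1 transcript each. Beta-catenin, CTNNB1, which binds E-cadherin, was at 0.18 according to the authors' deposited table, between transcripts at 0.08 and 0.35. Of 30 other polarity genes 25 have a row, with a median of −0.14 and 17 (68%) below 0. Beside the same shares of all genes, 1 (4%) was at −1 or lower and none at 1 or higher. Angiomotin (AMOT), which binds the Crumbs partner PATJ, was lowest at −1.57, followed by the polarity kinase MARK2 at −0.70 and DLG3 at −0.41 according to the authors' deposited table. Highest were LIN7B at 0.52, the small GTPase CDC42 at 0.40 and the kinase STK11 at 0.27 according to the authors' deposited table.

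Repressors of epithelial genes went either way. Of 10 listed 5 have a row, with SNAI1 at −0.86, SNAI2 at −0.59, ZEB1 at 0.52, PRRX1 at 1.47 and TCF3 at 4.25 according to the authors' deposited table. The value of TCF3 joins transcripts at −0.46 and 8.96, whereas both transcripts of ZEB1 were above 0, at 0.27 and 0.77 according to the authors' deposited table. Of 18 mesenchymal genes 7 have a row, with a median of 0.09 and 3 (42.9%) below 0, against 48.5% of all genes. Fibronectin (FN1) at −0.97, SPARC at −0.34 and ACTA2 at −0.003 were lowest, and the cadherin CDH11 at 2.39, TAGLN at 0.20 and vimentin (VIM) at 0.10 were highest in the authors' deposited table. CDH11 rests on 1 transcript, and the transcripts of FN1 ran from −2.77 to 1.62 according to the authors' deposited table. With E-cadherin at −0.79, vimentin close to 0 and fibronectin lower, the mesenchymal genes measured were not higher together.

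**Figure D5:**
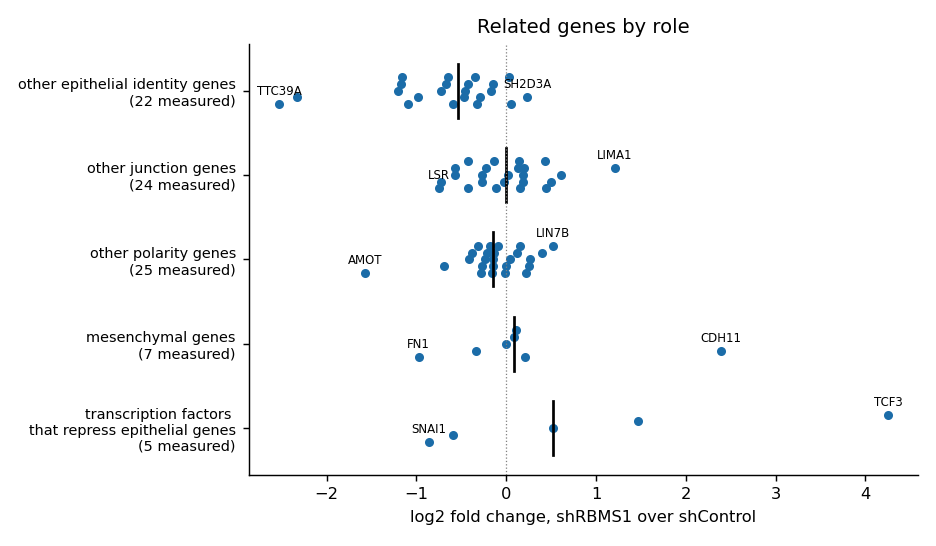
Log2 fold change of shRBMS1 over shControl for measured genes of 5 lists of related genes, each point a gene, with a line at each list's median and the genes at either end named. The medians run from −0.53 for other epithelial identity genes to 0.52 for repressors of epithelial genes.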

How the data were processed

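Total RNA of 3 SW480 libraries, 1 shRBMS1 and 2 shControl, was sequenced after rRNA removal, per the labels' protocols, and samples were grouped by the labelled shRNA. Per the submitters' processing notes the tools were STAR 2.5, Cufflinks and Cuffdiff and the build hg38, with no roles or settings. The authors deposited 1 table of log2 fold changes for 20104 RefSeq transcripts, from which the depth cannot be known. Its header gives neither base nor direction. Base 2 was read from repeated values: 20 transcripts lay 1 away, within 1.5e-05, from a value found at least 3 times, against 4 for ln 2 and 5 for log10 of 2. The direction was set from RBMS1, and every sign turns if it is wrong.

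RefSeq names (GRCh38.p14) matched 19818 transcripts (98.6%), and the other 286 were left out. Genes with several transcripts took their median. Counts used thresholds of 0 and 1, and no test was possible. Transcript structures came from GENCODE 29 through its RefSeq links, using the longest linked coding transcript of each gene for 3′ UTRs. Named were all 42 genes, RBMS1, and the 3 highest and 3 lowest genes of each related list, of which 1 is not reported here; CTNNB1 and KRT18 were added after their values were seen. The genes and lists were chosen with earlier results of these data known, and the E-box, the Grainyhead-like site and the CTNND1 split by start codon after values were seen. Alternatives were other ways to take a gene's value, other thresholds, centring and subsets of genes. The summaries were run on simulated data in which all transcripts of a gene shared 1 shift. Transcripts that disagree and the longest-transcript setting were not covered by it. Python 3.11.15, numpy 2.4.6, pandas 2.3.3 and matplotlib 3.10.9 were used.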

Additional observations from a re-analysis of the deposited data

How the results depend on the processing

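Sets of genes are described by counts and medians with no error, so a median was taken as moved when it differed by at least 0.1 and a count when it differed by over 1.5 times. The number of the 39 genes below 0 ran from 26 to 30 under the 7 alternatives that kept all 39 and took another value per gene, centring or background, and was 20 of 23 with genes of 1 measured transcript. Genes lower by at least 1 numbered 4 to 7 under the same 7 alternatives, the longest transcript giving 7 against 5.68% of all genes, and 3 of 23 with genes of 1 transcript, against 3.23%. At 1.5-fold 10 were lower and 2 higher, and at a threshold of 2, 1 (AP1M2) and 0, against 1.27% and 1.08% of all genes. Genes higher by at least 1 numbered 2 with the mean of transcripts, 3 with the longest transcript (5.40% of all genes), 2 without transcripts beyond 5 (3.64%) and 0 with genes of 1 transcript (3.31%).

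With the longest transcript, medians moved to −0.34 for all 39 genes, −0.34 for adherens junctions, −0.37 for tight junctions, −0.68 for regulators and −0.53 for sorting genes, and that of polarity genes turned to 0.13. With the least changed transcript, polarity genes turned to 0.11 and sorting genes moved to −0.53. Without transcripts beyond 5, sorting genes were also at −0.53, and with the mean of transcripts regulators were at −0.44. With genes of 1 transcript, medians were −0.35 for the whole set (23 genes), −0.79 for adherens junctions (3), −0.26 for tight junctions (8), −0.68 for regulators (2) and −0.68 for sorting genes (3). Fewer genes enter that setting, and the cause of the other moves was not tested. No paired analysis was possible because the table holds 1 value per transcript and no column per library, which also left no way to leave out a control library.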
